A study of Mus musculus with 4 samples.

Results

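The death-inducing complex and the necroptosis core are represented here by 8 genes, Fadd, Casp8, Cflar, Ripk1, Ripk3, Mlkl, Tradd and Bid. They were chosen by symbol from 24411 genes measured in the mouse mammary carcinoma line 4T1, by a rule that names no measured value but was written with earlier results of these data known. All 8 symbols were found, and 7 of them passed the filter on low values used for testing, which kept the 11167 genes with 1 TPM or more in 2 or more libraries. TPM, a transcript abundance scaled to a fixed sum per library, divides reads by transcript length, so levels can be compared between genes of a library. Each value is a share of its library, so a comparison between libraries also depends on what else each one holds. The series holds 4 libraries of poly(A)-selected RNA from cultured cells: 2 with the genotype label control and 2 with the label CD95ko. In the CD95ko cells a pair of guides was aimed at exon 9 of Fas, which encodes the death receptor CD95, in cells that already carried Cas9 from a blasticidin-selected lentivirus, and each CD95ko line is a clone grown from a single sorted cell and genotyped by PCR. The protocols name an untransduced and a Cas9-expressing line as the other RNA sources, but the titles do not say which control is which.

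When a death receptor of this family is engaged, the adaptor FADD joins it through death domains and recruits caspase-8, whose activity is tuned by its inactive relative c-FLIP, the product of Cflar. Active caspase-8 cleaves the executioner caspases and BID, which carries the signal to mitochondria. TRADD and the kinase RIPK1 bring the same machinery to TNF receptors, and when caspase-8 is not active, RIPK1 can engage RIPK3, which phosphorylates MLKL so that it permeabilizes the plasma membrane, a lytic death called necroptosis.

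In the libraries labelled CD95ko, Fadd was listed at about a 3.36-fold lower mean level than in the controls and Tradd at a 3.01-fold higher mean level, while Casp8 had nearly the same mean in both groups. Ripk3 was listed at 0 in all 4 libraries, although Mlkl, which acts directly after it, was among the most abundant of the 8 genes. After adjustment over all genes tested with limma, 0 of the 7 tested members were past 0.05, where 0.0537% of all tested genes did. At an unadjusted p under 0.05 there were 2, Tradd and Fadd, against 14.9% of all tested genes. The CD95ko values lay entirely on one side of the control values for 5 of the 7, higher for Tradd and Ripk1 and lower for Fadd, Cflar and Mlkl, and 47.6% of all tested genes had groups that did not overlap in this way (29.2% higher and 18.3% lower). Their median difference was -0.26 on the log2(TPM + 1) scale, against 0.13 over all tested genes.

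Of the 8 genes, 7 had an entry among RefSeq promoters of GRCm38.p6 (mm10 is the build in the submitters' notes), and Tradd had none. Windows of 250 bases before the annotated start are shown for Fadd, the lowest in the CD95ko libraries of the genes above 0, and for Ripk3 and Mlkl, the neighbouring steps of necroptosis with opposite levels in these cells. Capitals mark the GC box GGGCGG on either strand. The windows lie on the reverse strand at chr7:144582442-144582691, chr14:55788858-55789107 and chr8:111338206-111338455.
Fadd: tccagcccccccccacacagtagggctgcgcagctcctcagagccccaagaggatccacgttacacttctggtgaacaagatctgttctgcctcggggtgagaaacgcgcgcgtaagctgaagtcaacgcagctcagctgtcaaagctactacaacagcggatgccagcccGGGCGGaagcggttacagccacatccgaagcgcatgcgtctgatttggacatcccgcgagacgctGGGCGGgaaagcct
Ripk3: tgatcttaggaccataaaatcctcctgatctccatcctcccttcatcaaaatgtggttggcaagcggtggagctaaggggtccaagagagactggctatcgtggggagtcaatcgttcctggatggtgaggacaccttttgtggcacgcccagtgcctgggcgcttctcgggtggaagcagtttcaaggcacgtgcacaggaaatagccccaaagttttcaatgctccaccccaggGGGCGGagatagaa
Mlkl: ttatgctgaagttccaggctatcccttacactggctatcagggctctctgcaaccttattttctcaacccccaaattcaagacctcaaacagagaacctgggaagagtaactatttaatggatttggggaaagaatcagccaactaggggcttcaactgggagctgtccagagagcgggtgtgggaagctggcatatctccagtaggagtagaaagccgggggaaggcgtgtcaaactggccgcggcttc
The Fadd window held 2 GC boxes and 19 CpG dinucleotides, the Ripk3 window 1 GC box and 8 CpG, and the Mlkl window 0 GC boxes and 5 CpG. A GC box occurred in 32.7% of the 32851 RefSeq windows of this length searched, whose median CpG number was 6. An interferon-stimulated response element, searched as GAAANNGAAA on both strands, was found in 0 of the 8 windows of these genes (2.98% of all windows), and a kappaB element, searched as GGGNNTTTCC on both strands, also in 0 (1.41% of all windows). These are matches of letters within short windows and describe no binding.

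The libraries carried the epithelial markers of a mammary carcinoma line. Summed over 6 epithelial markers (Epcam, Cdh1 and the keratins Krt7, Krt8, Krt18 and Krt19), the level in controls 1 and 2 was 4550 and 4576 TPM, and in CD95ko 1 and 2 it was 8134 and 12436 TPM. All 6 leukocyte markers, including Ptprc, were at 0 in every library, as were 3 of 4 endothelial markers, with Tek at 0.28 TPM in control 2 only, and the 6 fibroblast markers summed to between 0.97 and 4.52 TPM. The targeted gene, Fas, was listed at 49.4 and 39.2 TPM in controls 1 and 2 and at 15.8 and 49.5 TPM in CD95ko 1 and 2. Because a gene-level value does not resolve exon 9 and CD95ko 2 was not below the controls, directions below refer to the libraries as labelled. Control 2 lay below control 1 for 75.9% of all tested genes (median difference -0.35 on the log2 scale), and all 20 listed interferon response genes were among these, with a median of -2.35. Control 1 exceeded control 2 by over 1.5-fold in 36.0% of all tested genes and in 2 of the 7, Fadd and Casp8.

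Fadd, on the reverse strand of chromosome 7 (144577318 to 144582463 in GENCODE M21, GRCm38), encodes the adaptor that links the receptor to caspase-8. Controls 1 and 2 had 21.3 and 12.8 TPM, and CD95ko 1 and 2 had 5.53 and 4.62 TPM. Both CD95ko values were below both controls, and the CD95ko pair lay close together while the controls differed, control 2 being at 60.2% of control 1. The means of controls and CD95ko libraries were 17.1 ± 6.00 and 5.08 ± 0.643 TPM (SD, n = 2 each). On the log2(TPM + 1) scale, which understates changes of low values, the difference was -1.54 ± 0.53 SE, with a 95% interval from -2.74 to -0.33 and a limma adjusted p of 0.24 (unadjusted 0.0183). Of all tested genes, 2.93% had a difference at least as low. Fadd did not pass the threshold over all genes, and its direction was the same under each of the 10 alternatives run. Of these, only quantile normalization (difference -1.77) could have reversed it. As the groups do not overlap, neither another pseudocount nor a left-out library can, and the remaining settings leave the estimate unchanged. Its unadjusted p was above 0.05 without control 1 (difference -1.19, limma adjusted p = 0.558, unadjusted 0.111) and without CD95ko 2 (-1.43, limma adjusted p = 0.433, unadjusted 0.0586). Over the alternatives, its limma adjusted p ran from 0.157 to 0.875. An antisense transcript, Faddos, shares 6.12% of the exonic bases of Fadd.

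Tradd, on the reverse strand of chromosome 8 (105258286 to 105264609), encodes the adaptor used by TNF receptor 1. It was listed at 26.7 and 20.2 TPM in controls 1 and 2 and at 62.1 and 79.0 TPM in CD95ko 1 and 2. Every CD95ko value was more than 2 times every control value. The means were 23.5 ± 4.60 and 70.6 ± 11.9 TPM (SD, n = 2 each), a difference of 1.55 ± 0.38 SE with a 95% interval from 0.68 to 2.42 and a limma adjusted p of 0.147 (unadjusted 0.00299). Of all tested genes, 4.34% had a difference at least as high. Without CD95ko 1 the difference was 1.72, and with 1 library left out it ran from 1.36 to 1.74. With all 4 libraries, Tradd did not pass the threshold under any alternative. No overlapping gene is annotated at Tradd.

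The adaptors stood in a different balance in each group. The ratio of Tradd to Fadd TPM was 1.25 and 1.57 in the controls and 11.2 and 17.1 in the CD95ko libraries. Fadd was the fifth of the 8 genes by level in control 1 and the sixth in control 2. In both CD95ko libraries it was the lowest of the 7 with a value above 0, and Tradd was the highest. No test was made of the ratios, which restate the values of the same genes.

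**Figure D1:**
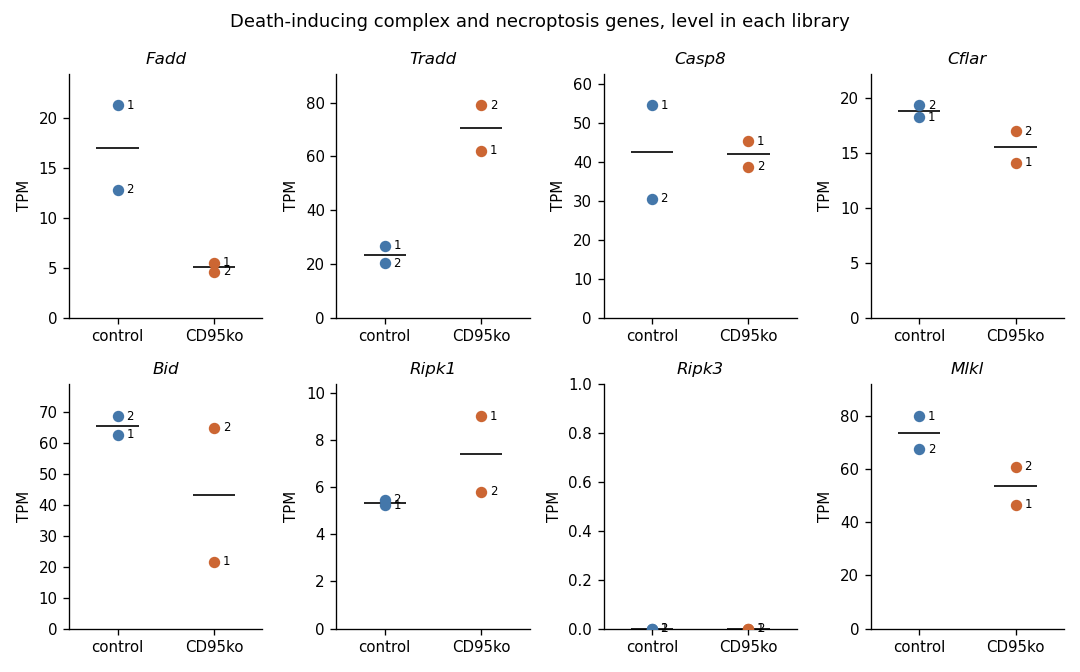
TPM of each of the 8 genes (vertical axes, each from 0) in the control and CD95ko libraries, with points numbered by replicate and lines at the group mean. Fadd lies lower and Tradd higher in both CD95ko libraries, Bid is low in CD95ko 1 only, and Ripk3 is listed at 0 in all 4.

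Casp8, on the forward strand of chromosome 1 (58795374 to 58847503), encodes the initiator caspase of the complex. It was listed at 54.5 and 30.6 TPM in controls 1 and 2 and at 45.2 and 38.8 TPM in CD95ko 1 and 2. Both CD95ko values fell between the controls, whose spread was the wider one. The group means were 42.5 ± 16.9 and 42.0 ± 4.59 TPM (SD, n = 2 each), and the difference of 0.03 ± 0.41 SE (95% interval from -0.90 to 0.97, limma adjusted p = 0.979) left room for a change of up to about 2-fold either way. Its sign depended on the libraries and scaling used: it was -0.37 without control 2, -0.07 without CD95ko 1 and -0.10 under quantile normalization. Control 2 was at 56.1% of control 1, a difference of -0.81 on the log2 scale beside the median of -0.35 for all tested genes and -2.35 for the interferon response genes, whose part in the Casp8 values was not tested.

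Cflar lies next to Casp8 on chromosome 1 (58711508 to 58758884, forward strand) and encodes c-FLIP, the catalytically inactive relative that competes with caspase-8 for FADD. It was the steadiest of the 7, listed at 18.2 and 19.3 TPM in the controls and at 14.1 and 16.9 TPM in CD95ko 1 and 2. The highest library was 1.37 times the lowest, and 13.2% of all tested genes stayed within 1.5 times. Although the CD95ko values were both below the controls, the difference of -0.26 ± 0.45 SE was smaller than its error (95% interval from -1.28 to 0.75, limma adjusted p = 0.826). Relative to Casp8, Cflar stood at 0.334 and 0.631 in controls 1 and 2 and at 0.311 and 0.437 in CD95ko 1 and 2, so this ratio overlapped between the groups. The ratio of Fadd to Casp8 did not overlap: it was 0.391 and 0.419 in the controls and 0.122 and 0.119 in the CD95ko libraries. As Casp8 had nearly the same mean in both groups, that ratio mostly restates the Fadd values, and neither ratio to Casp8 was tested. Parts of these genes also occur in other annotated transcripts, 10.4% of the stretches of 25 bases of Casp8 and 10.4% of those of Cflar on the same strand. For Casp8 most of these, 9.92%, were shared with Gm20257, listed at 1.91 TPM in CD95ko 1 and at 0 in each other library. For Cflar the gene sharing most, Gm9845 (4.52%), was not among the listed genes. How reads from such stretches were divided was not tested.

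Bid, on the reverse strand of chromosome 6 (120891930 to 120916853), encodes the BH3-only protein that caspase-8 cleaves to reach the mitochondria. It was listed at 62.7 and 68.8 TPM in the controls, 21.6 TPM in CD95ko 1 and 65.1 TPM in CD95ko 2. The low value was confined to CD95ko 1, at 32.9% of the control mean, whereas CD95ko 2 was at 99.0% of it and lay between the controls. The difference between the groups was -0.79 ± 0.51 SE (95% interval from -1.94 to 0.37, limma adjusted p = 0.5), and it was -0.01 without CD95ko 1 and -1.56 without CD95ko 2. Among the 7, Bid had by far the widest gap between the CD95ko clones, 1.55 on the log2 scale. The same shape, a CD95ko 1 value under 50% of each other library, occurred in 3.11% of all tested genes and also in Fas (15.8 TPM beside 39.2 to 49.5 TPM); this shape was picked out after the values were seen. Bcl2l13 overlaps 17.7% of the exonic bases of Bid on the opposite strand and was listed at between 10.2 and 19.3 TPM, and whether the authors' counting used strand is not given in the sources used here.

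**Figure D2:**
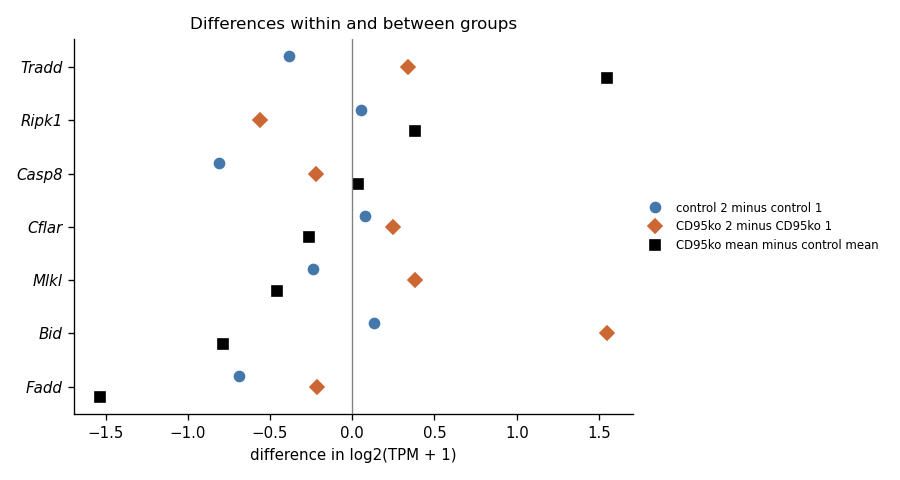
Differences in log2(TPM + 1) for the 7 genes tested, with circles for control 2 minus control 1, diamonds for CD95ko 2 minus CD95ko 1 and squares for the CD95ko mean minus the control mean. Squares lie farther from 0 than both other symbols for Tradd, Fadd, Cflar and Mlkl, while for Bid and Ripk1 the clones differ by more than the groups and for Casp8 the controls do.

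The necroptosis genes stood at very unequal levels. Ripk3 (chromosome 14, 55784995 to 55788865, reverse strand), the kinase that phosphorylates MLKL, was listed at 0 in control 1, control 2, CD95ko 1 and CD95ko 2, as were 46.9% of all listed genes. No stretch of 25 bases of its transcripts occurs in another annotated gene on either strand. Among 1771 genes with exons of nearly the same total length (within 10%), the lowest values above 0 were 0.32 TPM in control 1, 0.25 TPM in control 2, 0.58 TPM in CD95ko 1 and 0.94 TPM in CD95ko 2. The fifth percentiles of the values above 0 were 0.60, 0.70, 1.03 and 1.79 TPM in the same order. A value of 0 in these libraries is therefore no evidence on levels below about these. As depth is unknown, it also sets no firm upper bound, and no comparison between groups was possible.

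Mlkl (chromosome 8, 111311797 to 111338177, reverse strand) encodes the pseudokinase that carries out membrane rupture. It was listed at 79.9 and 67.5 TPM in the controls and at 46.5 and 60.8 TPM in CD95ko 1 and 2. Both CD95ko values were below both controls, but only by a little for CD95ko 2, which stood at 82.5% of the control mean. The difference of -0.46 ± 0.35 SE did not pass the test (95% interval from -1.25 to 0.34, limma adjusted p = 0.576). In control 1, 81.3% of tested genes had a level no higher than that of Mlkl, and in the other libraries the share was 81.8%, 70.2% and 77.1%. Transcript of the last step was abundant in every library, while that of the kinase before it was listed at 0.

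Ripk1 (chromosome 13, 34002363 to 34037147, forward strand) encodes the kinase and scaffold shared by the survival, apoptotic and necroptotic complexes. It was the lowest of the 7 in the controls, at 5.23 and 5.45 TPM, and was listed at 9.00 TPM in CD95ko 1 and 5.79 TPM in CD95ko 2. The CD95ko values were above the controls, yet CD95ko 2 exceeded control 2 by less than the clones differed from each other. The difference was 0.38 ± 0.56 SE (95% interval from -0.89 to 1.64, limma adjusted p = 0.794) and 0.10 without CD95ko 1. Its exons share 241 bases with Serpinb6a on the opposite strand, a far more abundant gene (354 and 492 TPM in controls 1 and 2, and 796 and 650 TPM in CD95ko 1 and 2), and without strand reads from that stretch cannot be told apart. A longer overlap, 511 bases (6.12% of the exonic bases of Ripk1), is with the pseudogene Gm17084 on the same strand. Gm17084 was not among the listed genes, and how reads from that overlap were divided was not tested.

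**Figure D3:**
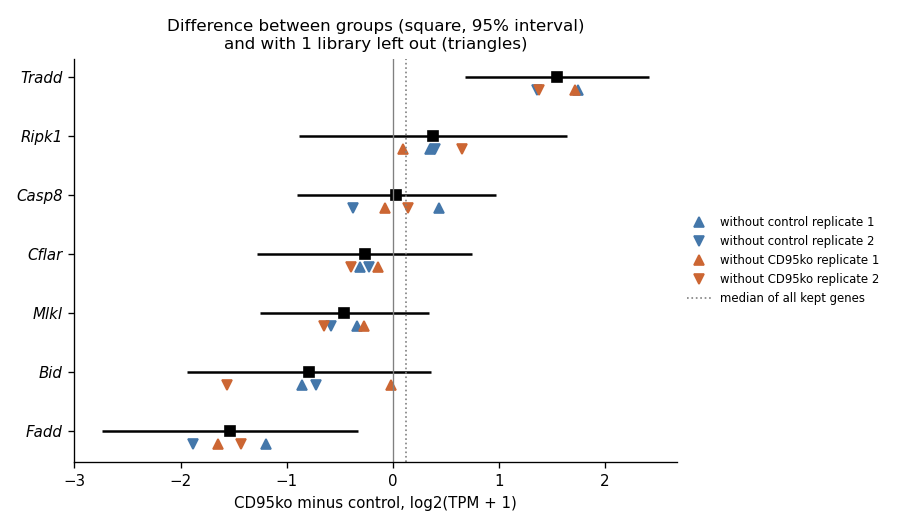
Difference between CD95ko and control in log2(TPM + 1) for the 7 genes tested, as squares with 95% intervals from limma, and with 1 library left out as triangles; the dotted line is the median of all tested genes. The intervals of Tradd and Fadd lie off 0, and the other 5 include it.

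The other genes of the pathway were taken from lists drawn up by role, and 0 of the members of any of these lists passed an adjusted p of 0.05 in limma. Of 7 further caspases considered 6 were tested, 1 of them higher and 1 lower at an unadjusted p under 0.05, against 9.25% higher and 5.68% lower over all tested genes. Casp6, an executioner, was listed at 13.7 and 6.59 TPM in the controls and at 28.4 and 45.1 TPM in the CD95ko libraries (1.80 ± 0.51 SE, limma adjusted p = 0.182). Its groups did not overlap, and it did not pass the threshold under any alternative run.

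Casp9, the initiator caspase of the apoptosome, was listed at 5.62 and 2.06 TPM in the controls and at 12.0 and 5.19 TPM in the CD95ko libraries, and Casp2 at 11.8 and 7.01 against 13.8 and 4.66 TPM. The groups overlapped for both. Casp4, an inflammatory caspase, was listed at 25.5 and 3.86 TPM in controls 1 and 2 and at 1.16 and 2.43 TPM in CD95ko 1 and 2 (-2.06 ± 0.83 SE, limma adjusted p = 0.293), with most of the difference resting on control 1: without it the difference was -0.84. Casp1, the caspase of the inflammasome, had 9.18 and 1.83 TPM in controls 1 and 2 and 1.10 and 39.2 TPM in CD95ko 1 and 2, and Casp12 had 8.34 and 2.54 TPM and 0.61 and 14.1 TPM in the same order. Both were over 2 times higher in control 1 and CD95ko 2 than in each other library, as were 1.94% of all tested genes. Casp14 was listed at 0 throughout.

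**Figure D4:**
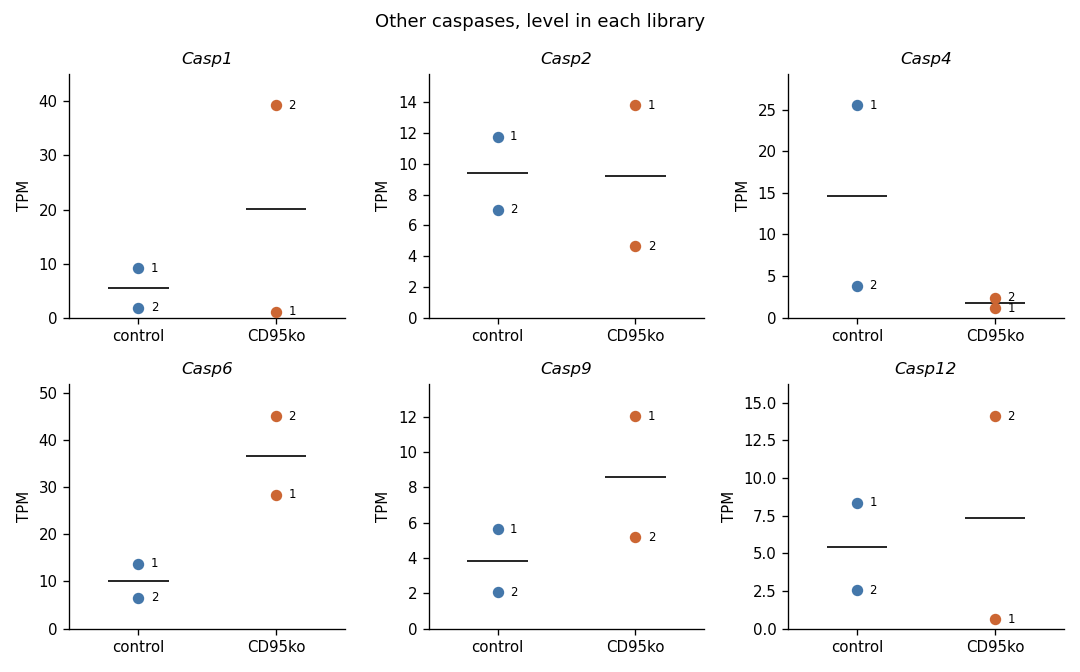
TPM of 6 other caspases (vertical axes, each from 0) in the control and CD95ko libraries, with points numbered by replicate and lines at the group mean. Casp6 lies higher in both CD95ko libraries and Casp4 lower, while Casp1 and Casp12 are high in CD95ko 2 only among the CD95ko pair.

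Among 12 death receptors and ligands 6 were tested, and 0 reached an unadjusted p under 0.05, against 9.25% higher and 5.68% lower over all tested genes. Fasl, the ligand of CD95, was listed at 0 in every library, and so were 3 others of that list. Of 8 further adaptors with death folds 6 were tested, also with 0 at that level. Of the 21 regulators of the RIPK1 complex all were tested, and 2 were lower and 0 higher at an unadjusted p under 0.05, beside the same 5.68% and 9.25% of all tested genes. Birc3, a ubiquitin ligase that modifies RIPK1, was listed at 24.8 and 27.2 TPM in the controls and at 2.26 and 4.73 TPM in CD95ko 1 and 2 (-2.64 ± 0.54 SE, limma adjusted p = 0.114). Traf2, the adaptor that holds such ligases at the TNF receptor complex, was listed at 73.1 and 62.1 TPM against 26.0 and 32.6 TPM (-1.18 ± 0.37 SE, limma adjusted p = 0.211). The difference of Birc3 was -2.23 without CD95ko 1 and -3.05 without CD95ko 2. With all 4 libraries, Birc3 did not pass the threshold under any alternative.

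The 16 partners of necroptosis and lytic death were all tested, with 2 higher and 1 lower at an unadjusted p under 0.05, a total of 3 beside 14.9% of all tested genes. Hsp90ab1, an HSP90 chaperone gene, was listed at 1994 and 1844 TPM in the controls and at 3814 and 5501 TPM in the CD95ko libraries (1.26 ± 0.29 SE, limma adjusted p = 0.144). Ticam1, the TLR3 adaptor TRIF, was listed at 5.52 and 7.91 TPM against 15.7 and 20.0 TPM (1.30 ± 0.50 SE, limma adjusted p = 0.279). Panx1, a membrane channel cleaved by caspases, was listed at 6.50 and 3.24 TPM in the controls and at 0 in both CD95ko libraries. Its difference was -2.50 ± 0.69 SE (limma adjusted p = 0.171). With values of 0 this size depends on the pseudocount, and it was -5.55 at a pseudocount of 0.1. Without CD95ko 1, the difference was 1.52 for Hsp90ab1 and -2.50 for Panx1. With all 4 libraries, neither gene passed the threshold under any alternative.

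Of 17 genes of the mitochondrial and executioner steps, all tested, 1 was higher and 2 were lower at an unadjusted p under 0.05, a total of 3 beside 14.9% of all tested genes. Cycs, cytochrome c, was listed at 87.2 and 115 TPM in the controls and at 40.9 and 28.1 TPM in CD95ko 1 and 2 (-1.53 ± 0.37 SE, limma adjusted p = 0.147). Without CD95ko 1 its difference was -1.80. With all 4 libraries, Cycs did not pass the threshold under any alternative. Bax, which permeabilizes the outer mitochondrial membrane, was listed at 259 and 307 TPM against 163 and 162 TPM (-0.79 ± 0.29 SE, limma adjusted p = 0.265). Parp1, a caspase substrate, was listed at 31.5 and 20.4 TPM against 52.0 and 46.2 TPM (0.92 ± 0.40 SE, limma adjusted p = 0.33). The members of this list thus lay in both directions, and their median difference was 0.12, beside 0.13 for all tested genes. The epithelial markers, higher in both CD95ko libraries as given above, move with the group in the same way as Tradd and Casp6, and their part in these values was not tested.

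Of the 20 interferon response genes, all tested, 3 were lower and 0 higher at an unadjusted p under 0.05, against 5.68% lower and 9.25% higher over all tested genes. Cxcl10, a chemokine gene induced by interferon, had 193 and 49.9 TPM in controls 1 and 2 and 23.8 TPM in CD95ko 1, and was listed at 0 in CD95ko 2 (-4.32 ± 1.27 SE, limma adjusted p = 0.187). Isg15, a ubiquitin-like modifier, had 600.5 and 212 TPM in controls 1 and 2 and 156 and 62.3 TPM in CD95ko 1 and 2 (-1.84 ± 0.56 SE, limma adjusted p = 0.197). Without CD95ko 1 the differences were -6.63 for Cxcl10 and -2.50 for Isg15. Without control 1, the library in which these genes were highest, they were -3.35 and -1.09. With all 4 libraries, neither gene passed the threshold under any alternative.

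**Figure D5:**
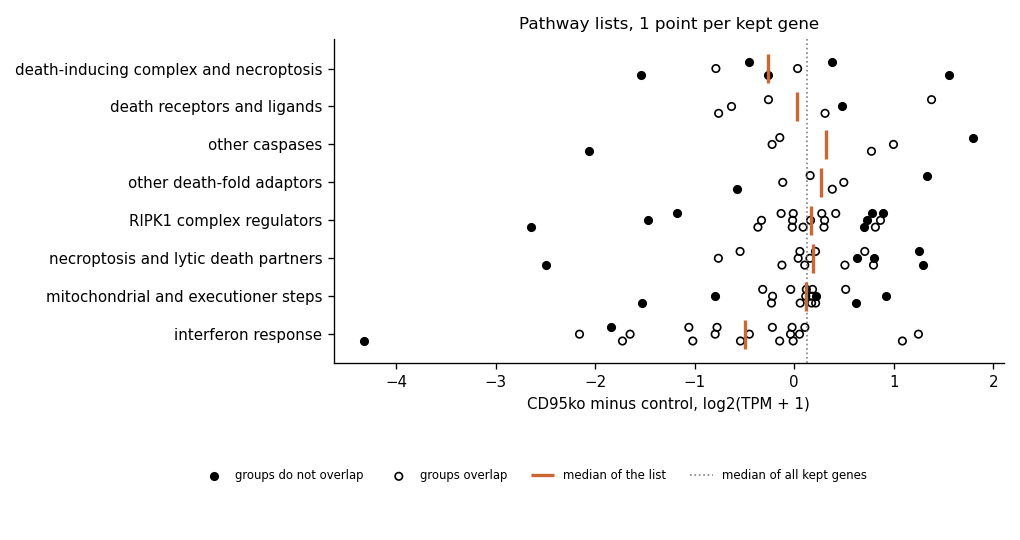
Difference between CD95ko and control in log2(TPM + 1), 1 point per tested gene in each list; filled points are genes whose groups do not overlap, bars are list medians and the dotted line is the median of all tested genes. The medians of the death and caspase lists lie between -0.26 and 0.32, and that of the interferon response list at -0.50.

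Likeness between profiles was measured as the Euclidean distance between mean-centred log2(TPM + 1) values over the 4 libraries, against the 98 other tested genes of the lists. The gene nearest to Fadd was Traf2, at a distance of 0.61, and the gene nearest to Tradd was Hsp90ab1, at 0.38. Casp8 was nearest to Cyld (0.16), the deubiquitinase of the RIPK1 complex, Cflar and Mlkl were nearest to each other (0.31), Ripk1 was nearest to Bak1 (0.23) and Bid to Tnf (0.32). With 4 libraries such likeness is common: 127 tested genes lay nearer to Fadd than Traf2 did, and 13 nearer to Bid than Tnf did. Tnf was also low, listed at 2.34 and 1.71 TPM in controls 1 and 2 and at 0 and 2.16 TPM in CD95ko 1 and 2.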

How the data were processed

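RNA was measured in 2 control and 2 CD95ko libraries of 4T1, grouped by the sample titles. The authors deposited 1 TPM value per gene symbol and library, per the file headers; STAR 2.6.0, RSEM 1.3.0 and mm10 come from the submitters' processing notes, and the annotation and strand setting are not given in the sources used here. TPM carries no read number, so depth is unknown and no counting interval was possible. Values were transformed to log2(TPM + 1) and tested between groups in R 4.3.3 by limma 3.58.1 (lmFit, eBayes with trend), two-sided, without covariates, with Benjamini-Hochberg adjustment over the 11167 genes with at least 1 TPM in at least 2 libraries and a threshold of 0.05. An exact permutation test of 2 libraries against 2 cannot give a p under 0.333. The labels name no separate cultures, so p-values measure only the spread between these libraries. Guide delivery and growth from a single cell are described here only for CD95ko lines, and their effects cannot be told apart from the label. In bulk RNA, fewer cells with a transcript and less of it per cell cannot be told apart. The procedure was run on simulated data with planted changes larger than the difference of any member, to check that the median estimate returned them. That run does not bear on error rates or power at the differences reported here. Gene positions, exon overlaps and shared stretches of 25 bases came from GENCODE M21 (GRCm38), and promoters from RefSeq (GRCm38.p6).

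The genes and lists were chosen with earlier results of these data known. The text names the 8 genes, Fas, all caspases reported here (some listed ones are left out), and from each other list up to 3 tested genes with the smallest unadjusted p under 0.05 whose groups did not overlap, plus the list gene nearest in profile to each of the 7. Alternatives were a pseudocount of 0.1, no filter, quantile normalization, no variance trend, a block for the replicate number, each library left out, and robust eBayes, the last chosen after seeing the data.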

Additional observations from a re-analysis of the deposited data

How the results depend on the processing

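Direction was kept by 6 of the 7 tested genes under all 10 alternatives, and Casp8 changed sign in 3 (-0.10 under quantile normalization, -0.37 without control 2 and -0.07 without CD95ko 1). Much of this was fixed in advance. Leaving out the filter or the trend, the replicate block and robust eBayes do not change the estimate of any of the 7. For the 5 whose groups did not overlap, a left-out library or another pseudocount cannot reverse the sign, so only quantile normalization could. Left-out libraries gave -1.88 to -1.19 for Fadd, 1.36 to 1.74 for Tradd, -0.37 to 0.44 for Casp8, -0.39 to -0.14 for Cflar, -1.56 to -0.01 for Bid, -0.65 to -0.27 for Mlkl and 0.10 to 0.66 for Ripk1. In these fits with 3 libraries the lone library is assumed to vary like the other group. Quantile normalization moved the median difference of all tested genes from 0.13 to 0.002, and 4 of the 7 genes then had groups that did not overlap, against 5 as reported. Of the 7, those at an unadjusted p under 0.05 numbered 1 to 2 with a library left out, and they were not always the same: Tradd alone without control 1 (930 of 11167 genes reached that level in this setting), Tradd and Fadd without control 2 (469) and without CD95ko 1 (2713), and Tradd and Bid without CD95ko 2 (1363).

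The number of genes of the whole table past the threshold, 6 as reported, was 0 under quantile normalization, 0 without trend, 0 when no filter was used and 0 at a pseudocount of 0.1 (1862, 1531, 1636 and 1553 at an unadjusted p under 0.05), 2 with the replicate block, 52 with robust eBayes, and 0 to 1034 with a library left out (0 without either control, 194 without CD95ko 2, 1034 without CD95ko 1); the cause was not tested. The replicate numbers share only a number (correlation of deviations -0.081 over genes), and the block changed no call among the 7. Among the other named genes, 4 changed sign with a library left out: Fas ranged from -1.42 to 0.16 (positive without CD95ko 1), Casp1 from -1.35 to 2.91 (negative without CD95ko 2, and -0.15 without control 2), Casp2 from -0.84 to 0.55 (positive without CD95ko 2, and 0.19 without control 1) and Casp12 from -1.84 to 1.39 (positive without CD95ko 1, and 0.48 without control 1).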

Other observations

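Beside Casp1 and Casp12, other genes of inflammatory and lytic death set control 1 and CD95ko 2 apart from the remaining libraries. Zbp1, a nucleic acid sensor that can engage RIPK3, had 23.8 and 61.4 TPM in control 1 and CD95ko 2, against 9.88 and 10.6 TPM in control 2 and CD95ko 1, and Gsdmd, the pore-forming gasdermin cleaved by inflammatory caspases, had 32.9 and 42.6 TPM against 11.5 and 11.1 TPM in the same order. Each of these levels in control 1 and CD95ko 2 was over 2 times each of the others, which held for 2 of the 6 tested caspases, 2 of the 16 partners of lytic death, 2 of the 20 interferon response genes (Irf1 and Psmb8), 0 of the 7 genes of the death-inducing complex and necroptosis core, and 1.94% of all tested genes. Zbp1, Gsdmd and this shape were picked out after the values were seen, so no test was made. For Casp1 the difference between CD95ko and control was 0.78 ± 1.23 SE (limma adjusted p = 0.811).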
